A study of Mus musculus with 8 samples.

Results

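The 49 genes described here control entry into S phase and copy the DNA. They were chosen by symbol from a list of G1/S and replication genes, and all 49 were found among the 52459 gene symbols of the raw count table. The rule itself uses no measured value, but the list was chosen with earlier results of these data known. The RNA came from AE9a+ leukaemic cells of the spleen of 8 moribund mice, with 1 library per mouse. AE9a is a shortened RUNX1-RUNX1T1 fusion protein, and its expression causes acute myeloid leukaemia in mice. In every group, cKit+ marrow cells of C57BL/6J mice carried a retrovirus with AE9a and a hairpin against Tet2 that doxycycline switches on (genotype RTA shTet2). The cells were given with wild-type support marrow to lethally irradiated C57BL/6J mice aged 6-8 weeks, and splenic leukaemia cells of such primary recipients were passed on to secondary recipients.

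The controls were 3 secondary recipients (mice 16, 17 and 19) that stayed on doxycycline, so that the hairpin was kept on, and received PBS. A pair of secondary recipients (mice 21 and 23) came off doxycycline and received PBS, which the labels call Tet2 restoration. Another pair (mice 28 and 30) stayed on doxycycline and received ascorbate. Values are listed in this order of mice. A single primary recipient on doxycycline, mouse 12, completes the set. No group lacks AE9a or the hairpin, and doxycycline withdrawal and Tet2 restoration cannot be told apart here. How the AE9a+ cells were separated from host and support cells is not given in the sources used here. The labels give 1 mouse per library, and p-values measure the spread between these mice. The sample titles do not name the primary donor of each secondary recipient.

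As background, a cell that commits to division passes from G1 to S phase when cyclin E with its kinase releases E2F factors from the retinoblastoma protein. E2F factors then switch on the genes for replication. The origin recognition complex, Cdc6 and Cdt1 load the Mcm2-7 helicase on DNA, and Cdc45, the GINS complex and Mcm10 help to activate it. Polymerase alpha with primase starts each strand, polymerases delta and epsilon extend it on the Pcna clamp, and ribonucleotide reductase supplies the deoxynucleotides. In leukaemia, RNA of these genes is widely used as a sign of proliferation.

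E2F factors bind a short GC-rich word in many replication gene promoters. Stretches before the starts of Mcm5, Mcm6 and Pola1 are shown, as genes that recur in the results below and hold such a word. Each holds 200 bases upstream of the RefSeq start (GRCm38.p6), written 5′ to 3′ on the gene's strand, and capitals mark an E2F word on either strand. The stretches lie at chr8:75109309-75109508 (plus strand), chr1:128359706-128359905 (minus strand) and chrX:93632156-93632355 (minus strand).
Mcm5: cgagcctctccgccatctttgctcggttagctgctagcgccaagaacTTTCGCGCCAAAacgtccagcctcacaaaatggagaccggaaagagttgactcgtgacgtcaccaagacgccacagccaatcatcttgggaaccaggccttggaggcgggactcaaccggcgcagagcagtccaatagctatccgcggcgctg
Mcm6: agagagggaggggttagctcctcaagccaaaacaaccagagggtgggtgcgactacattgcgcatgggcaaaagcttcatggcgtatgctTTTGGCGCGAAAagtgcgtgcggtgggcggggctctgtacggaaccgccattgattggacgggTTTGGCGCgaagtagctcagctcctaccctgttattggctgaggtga
Pola1: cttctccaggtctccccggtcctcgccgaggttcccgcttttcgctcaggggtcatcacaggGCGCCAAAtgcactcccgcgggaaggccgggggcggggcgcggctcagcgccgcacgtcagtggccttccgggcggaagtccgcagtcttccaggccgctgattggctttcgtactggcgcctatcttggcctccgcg

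The words searched were TTTCCCGC, TTTGGCGC, TTTCGCGC and TTTGCCGC on both strands, in RefSeq windows of 300 bases that run from 250 before to 50 after the start. Of the 49 genes, 41 had a window in the table, and 16 of the 41 (39.02%) held at least 1 word, against 2.605% of all 27025 genes. All genes were not matched to the 41 for GC content, and only exact words were counted. The first capital run of Mcm5 and that of Mcm6 each hold 2 words that overlap on opposite strands. Mcm6 has a further word at position -47 from its start, and Pola1 has 1 word at position -138. The windows of Rfc1, Pola2, Rrm1 and Mcm10, which also recur below, held 0 words. The word CCAAT, on both strands, was in 63.41% of the 41 genes and in 41.06% of all genes. The word TTTGAA, the core of an element of many late cell cycle genes, was in 14.63% and 20.23%. A match describes the letters only and says nothing of what is bound there.

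The libraries held 18.1 to 34.2 M counts, and the lowest count of any of the 49 genes in any library was 179. The share of mitochondrial genes was highest in mouse 28 (17.1%) and mouse 23 (14.5%), and 5.16% to 11.4% elsewhere. Levels below are CPM, that is counts scaled by library size with TMM factors. Tet2, the hairpin's target, was at 12.6, 12.8 and 13.4 CPM in the controls, 13.7 and 11.7 under ascorbate, and 14.1 and 23.1 in the restored-labelled pair. Mouse 21 lay close to the mice on doxycycline. Of the 9 progenitor markers, Kit (54.4 to 206 CPM), Myb (180 to 452) and Runx1 (198 to 307) were present in all 8 libraries. Mpo, a granule enzyme of myeloid progenitors, did not exceed 6.33 CPM, Cd34 not 19.8, Prtn3 not 8.78, and Elane and Ctsg not 0.653. Runx1t1 was at 108, 101 and 105 CPM in the controls and 155 and 304 in the restored-labelled pair. It was at 134 and 129 CPM under ascorbate and 184 in mouse 12. The part of AE9a in the Runx1t1 reads was not tested. The 10 erythroid marker genes summed to 4784 to 12924 CPM.

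All 49 genes were detected in all 8 libraries. Compared per transcript length in FPKM, as deposited, the helicase subunit Mcm6 stood highest in the controls at 174 ± 16.3 (SD, n = 3). Rrm2, the small subunit of ribonucleotide reductase, followed at 139 ± 13.2, then Mcm5 at 134 ± 13.7, Mcm3 at 129 ± 12.8 and the clamp Pcna at 121 ± 15.3 FPKM. Within the run from Rrm2 to Pcna, each gene differs from the next by less than 1 SD. The lowest were Dtl, which marks Cdt1 for destruction, at 7.58 ± 1.15, the origin recognition subunit Orc1 at 7.33 ± 0.989, and cyclin E1 (Ccne1) at 6.99 ± 0.471 FPKM, again within 1 SD of each other. In the plot of FPKM by gene, the libraries of 1 gene lie close together relative to the span between genes.

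**Figure D1:**
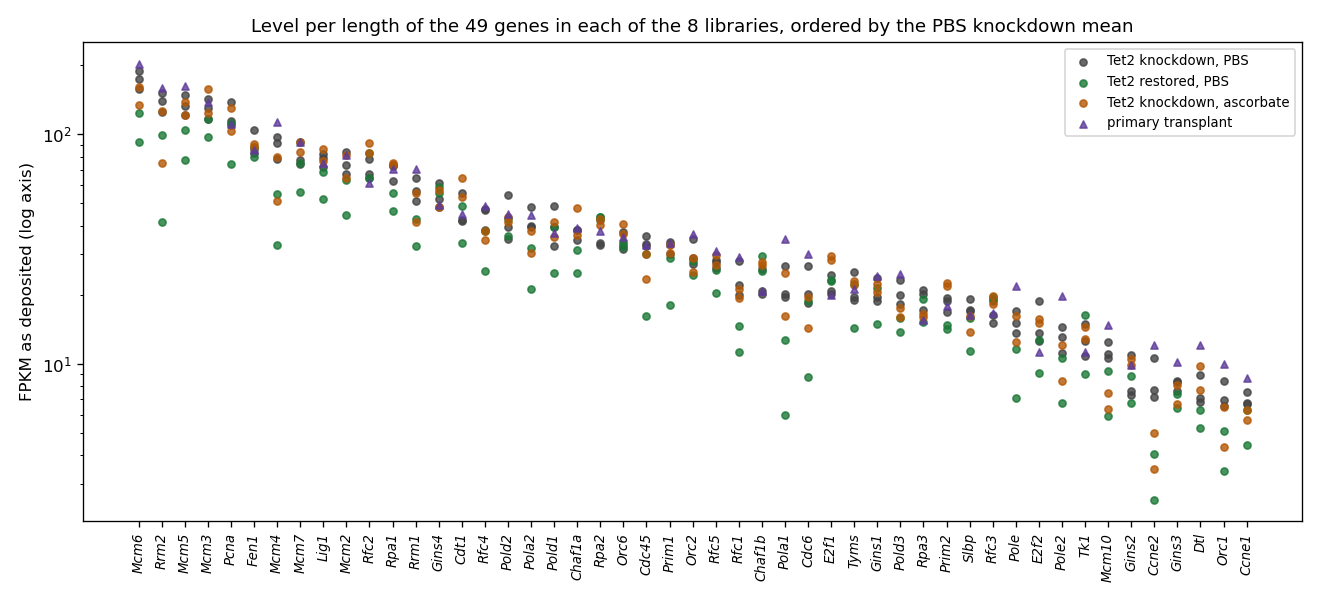
FPKM as deposited (log axis) for each of the 49 genes in each of the 8 libraries, ordered by the mean of the 3 controls (Tet2 knockdown, PBS). Levels run from 174 FPKM for Mcm6 to 6.99 for Ccne1 in the control mean. The lowest point of a gene is often that of mouse 23, 1 of the restored-labelled mice (green).

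The first comparison asks how the genes differ between the restored-labelled mice and the controls. Most had lower estimates after doxycycline withdrawal, and none passed the test. The edgeR quasi-likelihood test with Benjamini-Hochberg adjustment called 0 of 49 genes (percent called over all 12137 genes tested: 0). The log2 fold change was below 0 for 42 of 49 genes, against 50.2% of all genes, and its median was -0.37 against -0.0020 over all genes. The unadjusted p was under 0.05 for 16 of the 49 genes with lower values (all genes: 15.2%) and for 0 with higher values (all genes: 14.1%). Both restored-labelled mice lay below all 3 controls for 25 genes (all genes: 24.5%) and above them for 2 genes, Rfc3 and Rpa2 (all genes: 24.9%). Much of this rested on mouse 23: without it the median was -0.15 and 36 genes were below 0, and without mouse 21 the median was -0.57 and 15 genes were called lower (all genes: 6.97%), with the lone library of that arm assumed to vary like the other groups. The test with no filter on low counts called 13 genes lower (all genes: 5.61%), the Wald test of DESeq2 called 11 (9.25%), and edgeR with DESeq2 size factors called 1, Ccne2 (1.6%). The limma voom and limma-trend fits called 0 of the 49.

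The second comparison sets the ascorbate-treated mice against the same controls, all on doxycycline. Here the 49 genes showed no common direction. The edgeR test called 0 of 49 genes, while it called 2.86% of all genes (1.77% lower and 1.09% higher). The log2 fold change was below 0 for 29 of 49 genes (all genes: 51%), and its median was -0.045 against -0.012 over all genes. An unadjusted p under 0.05 was found for Ccne2 and Mcm10 with lower values (all genes: 12.9%) and for E2f1 with higher values (all genes: 10.7%). Both ascorbate mice lay below the controls for 9 genes (all genes: 23.5%) and above them for 5 (all genes: 22.4%). The sign of the median turned in 3 alternatives: 0.030 with limma voom, 0.057 without mouse 17 and 0.058 without mouse 28. Scaling to library totals moved the median of all genes to -0.12, and 36 of the 49 genes were then below 0. The DESeq2 Wald test and the test with no low-count filter each called 2 genes, Ccne2 and Mcm10 (lower among all genes: 6.67% and 4.08%), as did the fit of only the groups compared (4.22%). Mcm10 alone was called by limma voom (5.12%) and by the edgeR fits without mouse 21 (3.73%) or mouse 23 (3.69%).

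**Figure D2:**
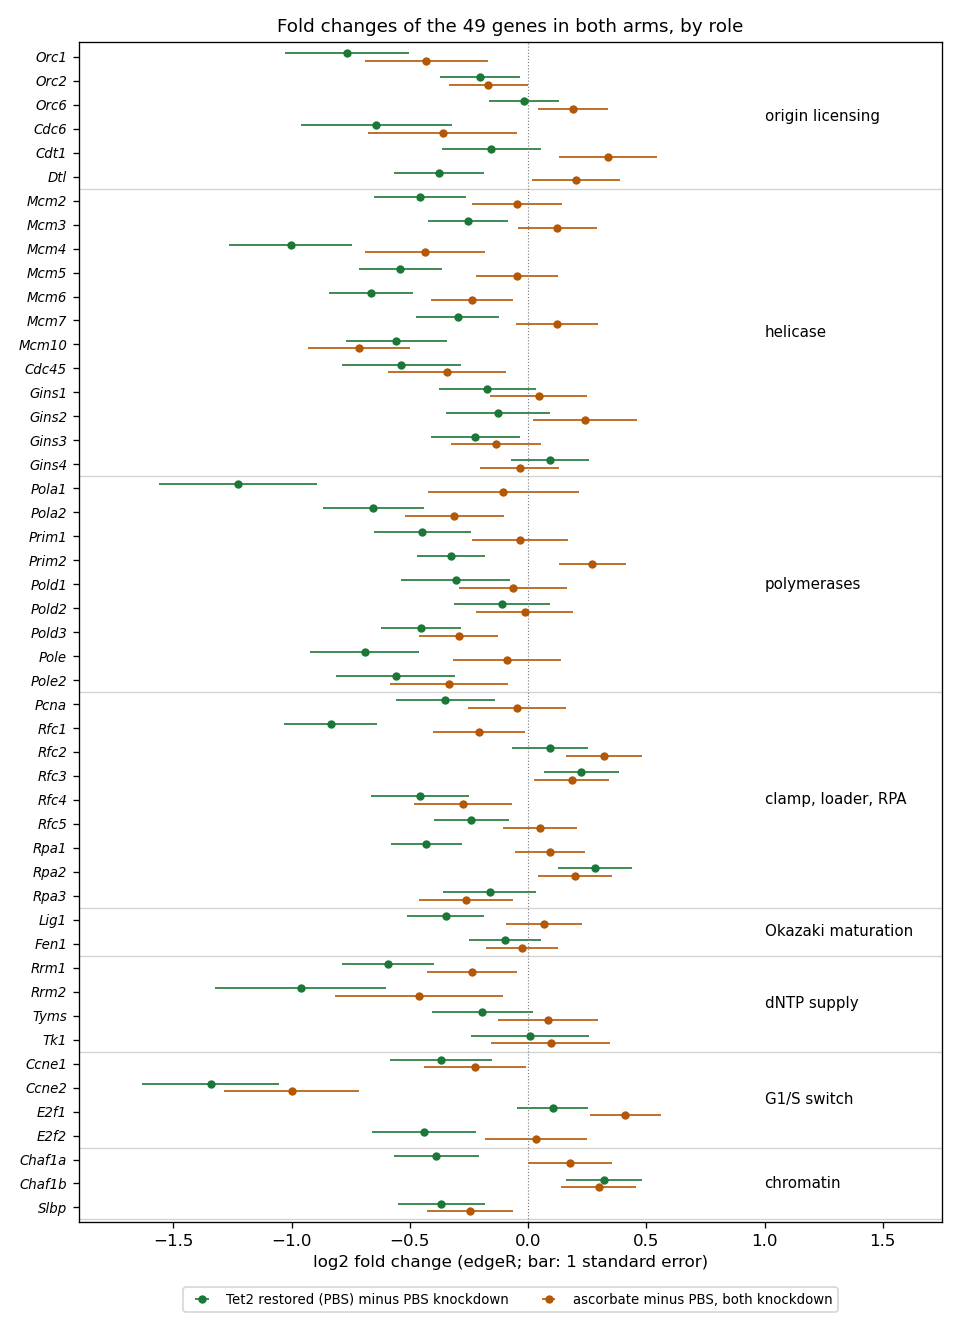
Log2 fold changes of the 49 genes (edgeR, bars of 1 standard error), grouped by role, for the restored-labelled mice (green) and the ascorbate mice (orange), each against the same 3 PBS knockdown mice. Green points lie below 0 for 42 of 49 genes and orange points for 29, and none of the points in either colour passed the adjusted threshold of 0.05.

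Both comparisons share the controls, so the values of each are given side by side below, in the order of the genes' roles. Among the genes that switch cells from G1 to S, cyclin E2 (Ccne2; chromosome 4, 11191351 to 11204779, plus strand, GRCm38) had the smallest p of all 49. It measured 37.1, 27.2 and 25.3 CPM in the controls, 14.6 and 9.04 in the restored-labelled pair, 12.3 and 17.7 in the ascorbate pair, and 42.1 in the primary mouse. All 4 mice of both arms lay below the lowest control. edgeR put the log2 fold change at -1.34 (SE 0.29, adjusted p = 0.0520) in the restored-labelled mice and -0.999 (SE 0.29, adjusted p = 0.0868) under ascorbate. Ccne2 shares exonic bases with Ints8 on the opposite strand, and Ints8 measured 113, 70.2 and 97.5 CPM in the controls, 58.1 and 72.6 in the restored-labelled pair, and 98.2 and 88.5 under ascorbate. The other cyclin E gene, Ccne1, was at 18.7 ± 1.33 CPM (SD, n = 3) in the controls and had smaller estimates of -0.37 (SE 0.22) and -0.22 (SE 0.22).

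The activating factor E2f1 (chromosome 2, 154559407 to 154569892, minus strand) had a positive estimate under ascorbate. It was at 64.1, 77.4 and 65.8 CPM in the controls, 75.3 and 73.2 in the restored-labelled pair, 90.6 and 94.3 in the ascorbate mice, and 62.7 in the primary mouse. Both ascorbate mice stood above every other library, with a log2 fold change of 0.41 (SE 0.15, edgeR adjusted p = 0.143). E2f2, another activating E2F, was at 73.7 ± 16.3 CPM in the controls and 75.9 ± 2.42 (SD, n = 2) under ascorbate.

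The origin proteins gave estimates below 0 for 6 of 6 genes in the restored-labelled mice and for 3 of 6 under ascorbate. Orc1, the ATPase of the origin recognition complex, was at 29.5, 24.6 and 23.0 CPM in the controls, 18.3 and 12.0 in the restored-labelled pair, and 15.3 and 23.0 in the ascorbate pair. Its edgeR estimate was -0.77 (SE 0.26, adjusted p = 0.0978) in the restored-labelled mice and -0.43 (SE 0.26, adjusted p = 0.341) under ascorbate. The helicase loader Cdc6 spread widely, from 96.7 to 141 CPM within the controls and from 46.3 to 101 between mice 23 and 21. Cdt1, which brings the helicase to origins, had estimates of -0.16 (SE 0.21) and 0.34 (SE 0.21, adjusted p = 0.346). Orc6 was nearly level, at 84.5 ± 8.16 CPM in the controls and 83.5 ± 1.49 in the restored-labelled mice.

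The helicase genes gave estimates below 0 for 11 of 12 in the restored-labelled mice, with 7 of 12 below the control range (all genes: 24.5%), and for 8 of 12 under ascorbate. Mcm4 (chromosome 16, 15623897 to 15637400, minus strand) measured 350, 333 and 283 CPM in the controls, 202 and 119 in the restored-labelled pair, 187 and 292 in the ascorbate pair, and 405 in the primary mouse. Both restored-labelled mice were below the control range, while the ascorbate mice lay on either side of its lower end. edgeR put the log2 fold change at -1.004 (SE 0.26, adjusted p = 0.0620) and -0.44 (SE 0.25, adjusted p = 0.322). Mcm6, whose upstream sequence with 3 E2F words is printed above, was at 889, 826 and 737 CPM in the controls and 597 and 436 in the restored-labelled pair, an estimate of -0.66 (SE 0.18, adjusted p = 0.0644). Mcm5 was at 533, 599 and 486 against 431 and 312 CPM, an estimate of -0.54 (SE 0.18, adjusted p = 0.0889). The 6 subunits form 1 ring, yet their estimates in the restored-labelled mice ran from -0.26 for Mcm3 to -1.004 for Mcm4, with standard errors of 0.17 and 0.26.

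Mcm10 (chromosome 2, 4989714 to 5012791, minus strand), which helps to open the loaded helicase, had its larger estimate under ascorbate. It was at 96.1, 82.5 and 85.1 CPM in the controls, 73.8 and 45.9 in the restored-labelled pair, 49.4 and 58.4 in the ascorbate mice, and 113 in the primary mouse. Both arms lay below the control range. edgeR put the log2 fold change at -0.71 (SE 0.22, adjusted p = 0.0977) under ascorbate and -0.56 (SE 0.21, adjusted p = 0.126) in the restored-labelled mice. Under ascorbate the gene passed the threshold in 6 of 18 alternatives, among them limma voom (adjusted p = 0.0390) and the fits without mouse 21 (0.0386) or without mouse 23 (0.0414). Adjusted p over the 18 ran from 0.00855 to 0.411. Gins4, a subunit of the GINS complex, was the helicase gene with a positive estimate in the restored-labelled mice, 0.09 (SE 0.17).

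**Figure D3:**
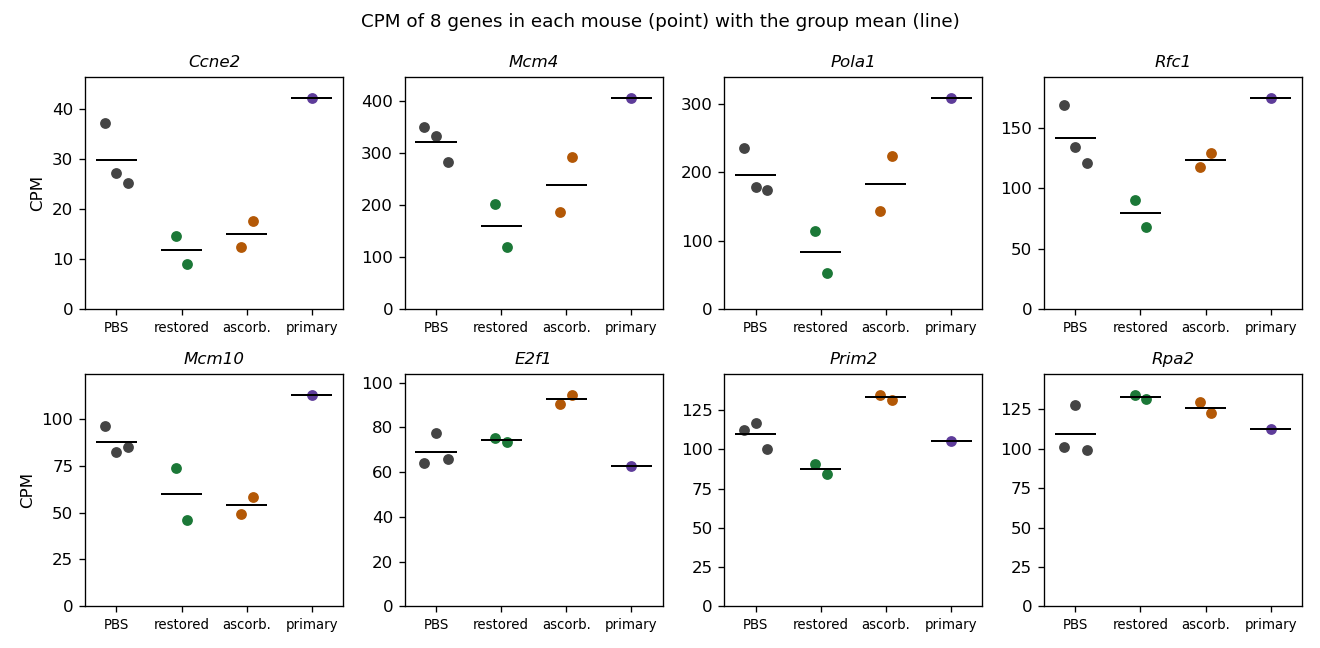
CPM of 8 of the genes in each mouse (points) with the group mean (line), on axes that start at 0, for control (PBS), restored-labelled, ascorbate and primary mice. In Ccne2, Mcm4, Pola1, Rfc1 and Mcm10 the restored-labelled points lie below the control points, in E2f1 and Prim2 the ascorbate points lie above them, and in Rpa2 the restored-labelled points do.

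Of the 8 roles, the polymerase genes had the lowest median in mouse 23. Their median log2 ratio to the control mean was -0.84 in that mouse, -0.27 in mouse 21, -0.28 in mouse 28 and -0.012 in mouse 30. In the restored-labelled mice 9 of 9 estimates were below 0 (all genes: 50.2%) and 7 of 9 genes lay below the control range (all genes: 24.5%). Pola1, the catalytic subunit of polymerase alpha (chromosome X, 93304767 to 93632155, minus strand), was at 236, 179 and 174 CPM in the controls and at 115 and 53.1 in the restored-labelled pair. It was at 144 and 223 CPM in mice 28 and 30, 1 below and 1 within the control range, and at 308 in the primary mouse. edgeR put the log2 fold change at -1.23 (SE 0.33, adjusted p = 0.0666) in the restored-labelled mice and -0.11 (SE 0.32, adjusted p = 0.865) under ascorbate. Its partner subunit Pola2 had estimates of -0.65 (SE 0.21, adjusted p = 0.0889) and -0.31 (SE 0.21), and the catalytic subunit of polymerase epsilon, Pole, -0.69 (SE 0.23, adjusted p = 0.0935) and -0.09 (SE 0.23).

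The large primase subunit Prim2 (chromosome 1, 33453810 to 33669795, minus strand) was on opposite sides of the control range in the 2 arms. It measured 112, 117 and 100 CPM in the controls, 90.6 and 84.6 in the restored-labelled pair, 135 and 132 in the ascorbate pair, and 105 in the primary mouse. The estimates were -0.33 (SE 0.14, edgeR adjusted p = 0.169) and 0.27 (SE 0.14, adjusted p = 0.276). The catalytic primase subunit Prim1 was level under ascorbate, at 126 ± 8.36 CPM in the controls and 124 ± 6.78 in the ascorbate mice. Pold3, a subunit of polymerase delta, was below the control range in both arms, with estimates of -0.45 (SE 0.17) and -0.29 (SE 0.17, adjusted p = 0.313).

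In the clamp loader, which places Pcna on DNA, and in the single-strand binding protein RPA, subunits of 1 complex had estimates of opposite sign in the restored-labelled mice, and the difference between subunits was not tested. Rfc1, the large subunit of the clamp loader (chromosome 5, 65261850 to 65335670, minus strand), was at 169, 134 and 121 CPM in the controls, 90.6 and 68.2 in the restored-labelled pair, and 118 and 129 under ascorbate. Its estimate in the restored-labelled mice was -0.83 (SE 0.20, edgeR adjusted p = 0.0542). Of the small subunits of the same complex, Rfc2 and Rfc3 had positive estimates there, 0.09 (SE 0.16) and 0.22 (SE 0.16). Rfc4 and Rfc5 had negative ones, -0.46 (SE 0.21) and -0.24 (SE 0.16), so the sign did not divide the large subunit from the small ones. Under ascorbate Rfc2 was at 587 and 533 CPM against 410, 500 and 427 in the controls, an estimate of 0.32 (SE 0.16, adjusted p = 0.256). Within RPA, the large subunit Rpa1 was at 407, 414 and 352 CPM in the controls and 320 and 261 in the restored-labelled pair, while the middle subunit Rpa2 was at 101, 128 and 99.0 against 134 and 132. The estimates were -0.43 (SE 0.15, adjusted p = 0.102) and 0.28 (SE 0.16, adjusted p = 0.256). That of the remaining subunit, Rpa3, was -0.16 (SE 0.20). Pcna itself was at 292 ± 38.0 CPM in the controls, 229 ± 69.0 in the restored-labelled mice and 284 ± 46.2 under ascorbate.

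In deoxynucleotide supply, both subunits of ribonucleotide reductase lay below the control range in the restored-labelled mice. Rrm2 was at 420, 393 and 348 CPM in the controls, 282 and 116 in the restored-labelled pair, and 210 and 355 in the ascorbate pair, so each arm held 1 mouse well below the other. Its estimate was -0.96 (SE 0.36, edgeR adjusted p = 0.127) in the restored-labelled mice, and that of Rrm1 was -0.59 (SE 0.19, adjusted p = 0.0895). Thymidylate synthase (Tyms) and thymidine kinase (Tk1) had estimates of -0.19 (SE 0.21) and 0.01 (SE 0.25). The enzymes that join Okazaki fragments were nearly level under ascorbate, with 0.07 (SE 0.16) for the ligase Lig1 and -0.03 (SE 0.15) for the nuclease Fen1.

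Chromatin assembly factor 1, which puts histones on new DNA, had subunits with estimates of opposite sign, neither of which passed the test and whose difference was not tested. Chaf1a was at 128, 129 and 115 CPM in the controls and 107 and 82.7 in the restored-labelled pair, whereas Chaf1b was at 101, 131 and 104 against 131 and 149. For the restored-labelled mice edgeR estimated -0.39 (SE 0.18) for Chaf1a, with an adjusted p of 0.183. Chaf1b overlapped the controls and had 0.32 (SE 0.16), with an adjusted p of 0.211 by edgeR. Under ascorbate Chaf1b was at 141 and 137 CPM, above the control range, with an estimate of 0.30 (SE 0.16, edgeR adjusted p = 0.286). Slbp, which binds the end of histone mRNA, lay below the range in both arms, with -0.37 (SE 0.18) and -0.24 (SE 0.18).

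A further comparison tested the 2 arms against each other, restored-labelled minus ascorbate. Estimates were below 0 for 43 of 49 genes (all genes: 48.6%), with a median of -0.30 against 0.014 over all genes. The edgeR test called 0 of 49 genes, against 0.00824% of all genes. The unadjusted p was under 0.05 for 10 genes with lower values in the restored-labelled mice (all genes: 7.35%) and 0 with higher values (all genes: 8.85%). The 10 were, by p, Prim2 at -0.60 (SE 0.16, adjusted p = 0.166), Rpa1 at -0.52, Pola1 at -1.12 (SE 0.35, adjusted p = 0.206), Rfc1 at -0.63, Chaf1a at -0.57, Dtl at -0.58, Mcm5 at -0.49, Pole at -0.60, Lig1 at -0.42 and Mcm6 at -0.43. For Prim2 and Pola1 the DESeq2 Wald test gave adjusted p of 0.0241 and 0.0254 (lower among all genes: 1.64%), and Pola1 also passed with no low-count filter (1.26%). Adjusted p for Pola1 over the 18 alternatives ran from 4.38e-05 to 0.665. Both restored-labelled mice were below both ascorbate mice for 20 genes (all genes: 22.1%) and above them for 1, Rpa2 (all genes: 22.8%). The median was -0.071 without mouse 23 and -0.63 without mouse 21, and -0.47 without mouse 28 and -0.15 without mouse 30.

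The primary leukaemia of mouse 12 gave a single library, so a lack of calls does not show that it was like the controls. With this library assumed to vary like the other groups, edgeR called 0 of 49 genes, against 0.115% of the 13024 genes that edgeR tested. DESeq2 and limma also called 0 of the 49. Estimates were above 0 for 32 of 49 genes, and their median was 0.085 against -0.011 over all genes. Mouse 12 lay above the 3 controls for 21 genes (all genes: 31.8%) and below them for 6, which were E2f1, E2f2, Pcna, Rfc2, Rpa3 and Slbp (all genes: 29.7%). The unadjusted p was under 0.05 for 1 gene with a higher value, Dtl (all genes: 4.39%), and for 0 with lower values (all genes: 4.69%). Dtl was at 165 CPM in mouse 12 against 123, 98.0 and 93.6 in the controls, with a log2 fold change of 0.66 (SE 0.22, edgeR adjusted p = 0.381). The next by p were Pole2 at 0.59, Pole at 0.50, Pola1 at 0.65, E2f2 at -0.43, Ccne2 at 0.50, Mcm10 at 0.36, Orc1 at 0.42, Rpa3 at -0.34 and Gins3 at 0.30, with adjusted p of 0.595 or more.

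Seen by library, mouse 23 stood apart. The median log2 ratio of the 49 genes to the control mean was -0.58 in mouse 23, against -0.14 in mouse 21, -0.081 and 0.065 in the ascorbate pair, and 0.090 in mouse 12. Within the control group it was 0.0045, 0.11 and -0.14 in mice 16, 17 and 19, so mouse 21 was level with mouse 19. Mouse 23 was the lowest of the 7 secondary libraries for 40 of 49 genes, against 23.5% of all genes. It lay below the control range for 40 genes (all genes: 39.8%), mouse 21 for 26 (33.5%), mouse 28 for 23 (37.4%) and mouse 30 for 9 (32.6%). The ascorbate mice thus also differed from each other. Mice 23 and 28, the lower of each arm, had the highest mitochondrial shares, 14.5% and 17.1%. Their libraries were also the smallest, at 19.9 and 18.1 M counts. The part of either in these differences was not tested. The PBS knockdown mice were themselves ordered, since mouse 19 was the lowest of the 3 for 38 genes (all genes: 24.4%) and mouse 17 the highest for 31 (all genes: 38%). The 49 genes together took 9259, 9749 and 8268 CPM in mice 16, 17 and 19, 7937 and 5829 in the restored-labelled pair, 8209 and 9524 in the ascorbate pair, and 9987 in mouse 12.

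**Figure D4:**
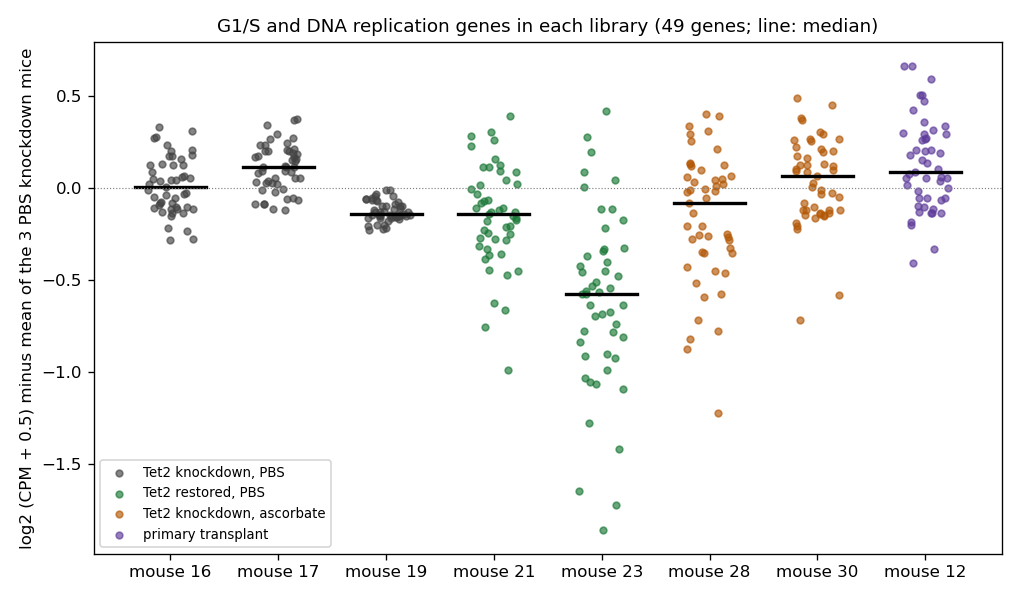
Log2 (CPM + 0.5) of each of the 49 genes in each library minus the mean of the 3 controls (points), with the median per library (line). The line of mouse 23 lies at -0.58, and those of the other 7 libraries between -0.14 and 0.11.

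Marker genes were measured beside these genes. Mouse 23 also held the lowest summed level of 16 mitosis markers, 2073 CPM against 2424 to 3848 in the other 7 libraries. The mitosis markers had estimates below 0 for 14 of 16 in the restored-labelled mice (median -0.41) and for 15 of 16 under ascorbate (median -0.29). The 12 macrophage markers summed to 45.7, 73.5 and 86.0 CPM in the controls, 36.6 and 15.8 in the restored-labelled pair, 29.9 and 30.4 in the ascorbate pair, and 26.7 in mouse 12. The 10 erythroid markers had median log2 ratios of -1.20 in mouse 23, -0.12 in mouse 21, and -0.46 and -0.60 in the ascorbate pair, though their sum did not follow the same order. None of the 12 macrophage markers was at 0 in all 8 libraries. The 6 mast cell and basophil markers summed to 1095 and 1341 CPM in the restored-labelled pair, to 763 and 1025 under ascorbate and to 1345 for mouse 12, all above the 440 to 591 of the controls. Markers of B cells summed to 12.0 to 81.5 CPM over the 8 libraries, of T and NK cells to 0.681 to 6.11, of late neutrophils to 1.18 to 43.3, and of megakaryocytes to 1.05 to 4.83, with Ppbp at 0 in all 8. The part of these cells in the result was not tested. In bulk RNA, fewer cells in S phase and less RNA of these genes per cell cannot be told apart.

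Transcript length moved with the fold changes across all genes, so the 49 were split into 3 length classes, each with an equal number of all genes. In the restored-labelled mice the median log2 fold change was -0.17 for the 10 genes in the short class, -0.35 for the 25 in the middle and -0.44 for the 14 in the long class. Over all genes the same medians were 0.25, -0.0066 and -0.25. The 49 genes were below all genes in each class. Under ascorbate their medians were -0.041, -0.036 and -0.068, against 0.16, -0.021 and -0.13 over all genes. With the trend on length removed, the median of the 49 in the restored-labelled mice was -0.33 and 42 were below 0, and with length and GC content removed it was also -0.33, with 44 below 0.

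**Figure D5:**
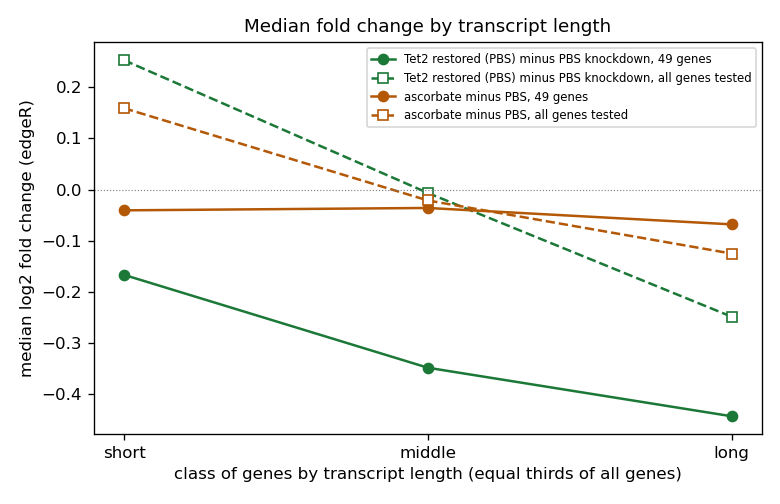
Median log2 fold change (edgeR) of the 49 genes and of all genes tested in each of 3 classes of transcript length (short, middle, long), for the restored-labelled mice and for the ascorbate mice against the controls. In the restored-labelled mice the 49 genes run from -0.17 to -0.44 and all genes from 0.25 to -0.25.

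Genes with and without an E2F word in their promoter window, counting only the exact words searched, were also set side by side. In the restored-labelled mice the 16 with a word had a median log2 fold change of -0.41, with 15 below 0, and the 25 without had -0.37, with 21 below 0. Under ascorbate the medians were -0.055 and -0.045. They lay further apart between the arms, restored-labelled minus ascorbate, at -0.40 and -0.21, and in the primary mouse against the controls, at 0.23 and 0.050. The differences between the sets were not tested.

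Another 87 genes of the pathway that are not among the 49 were listed by role, and 86 were tested. This list too was chosen with earlier results of these data known, so it is not an independent check. In the restored-labelled mice edgeR called 0 of 86 (percent called over all genes: 0). Estimates were below 0 for 71 of 86 (all genes: 50.2%), with a median of -0.42 against -0.0020 over all genes. The unadjusted p was under 0.05 for 38 with lower values (all genes: 15.2%) and 1 with higher values (all genes: 14.1%). Under ascorbate 59 of 86 had estimates below 0 (all genes: 51%), with a median of -0.13, and the unadjusted p was under 0.05 for 17 with lower values (all genes: 12.9%) and 5 with higher values (all genes: 10.7%). Of the 86, 2 fell and 1 rose past the adjusted threshold, close to the shares of all genes, 1.77% and 1.09%. The 3 are therefore described as single genes, not as a result about the list. Topbp1, which helps to start replication and to activate the kinase Atr, was at 245, 187 and 197 CPM in the controls, 89.7 and 69.9 in the restored-labelled pair, and 96.1 and 129 in the ascorbate pair. Under ascorbate it fell from 210 ± 31.2 CPM (SD, n = 3) to 112 ± 23.0 (SD, n = 2), a log2 fold change of -0.91 (SE 0.20, edgeR adjusted p = 0.0473), beside an estimate of -1.40 (SE 0.21, adjusted p = 0.0502) in the restored-labelled mice. Rrm2b, the ribonucleotide reductase subunit that p53 switches on, fell from 9.32 ± 2.08 to 3.62 ± 0.373 CPM, a change of -1.37 (SE 0.29, adjusted p = 0.0448). Cdkn1b, which encodes the inhibitor p27 of cyclin E and its kinase, rose from 96.8 ± 12.6 to 181 ± 31.2 CPM, a change of 0.89 (SE 0.18, adjusted p = 0.0392). Each of these 3 calls was lost when any 1 of mice 16, 17, 19, 28 or 30 was left out, with adjusted p up to 0.259 for Topbp1, 0.222 for Rrm2b and 0.159 for Cdkn1b. Between the 2 arms, edgeR gave these genes adjusted p of 0.309, 0.216 and 0.215.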

How the data were processed

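For 8 libraries the authors deposited whole-number counts per gene symbol that are not normalized, as the values show; the FPKM values of the same libraries were also deposited by the authors, per the file headers. STAR, featureCounts and DESeq2 were used with mm10 (GRCm38), per the submitters' processing notes; versions, settings and strand are not given in the sources used here. Oligo-dT beads selected the mRNA, per the labels' protocols. The 49 genes and all gene lists were chosen with earlier results of these data known.

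Genes were tested with edgeR 4.0.16 (R 4.3.3): TMM factors, filterByExpr with a minimum count of 10, robust quasi-likelihood F test, Benjamini-Hochberg adjustment over all genes tested and a threshold of 0.05. The 7 secondary libraries in 3 groups entered 1 fit for 3 comparisons, and all 8 entered the fit for the primary library. All genes were fitted, and in each comparison the 10 of the 49 with the smallest p are named. Further members are given by role, some with their tests and some because their sign differed. These were not chosen by p. Other pathway genes are named where they passed. Alternatives were DESeq2 1.42.0 (size factors or Wald test), library totals, length offset, length and GC offset, no low-count filter, limma 3.58.1 (quality-weighted voom, or limma-trend on log2(FPKM + 0.1) or log2(FPKM + 1), keeping genes that reach 1 FPKM in 2 libraries), other sets of libraries, and each library left out. The edgeR test was also run on simulated counts, with changes placed in the ascorbate arm only and the spread of each gene capped. Only the size of the estimates was checked there, not error rates or the restored-labelled arm. Library log ratios use log2(CPM + 0.5). All 49 genes were found in GENCODE vM21, and 18 share exonic bases with another gene, whose reads cannot be told apart without strand. Promoter sequences are from RefSeq (GRCm38.p6).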

Additional observations from a re-analysis of the deposited data

How the results depend on the processing

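No paired analysis was made, because the sample titles do not give the primary donor of each secondary recipient. Whether mice of different groups shared a donor is therefore not known here. Counts of the 49 genes called differed from 0 in these alternatives. In the restored-labelled mice against the controls, 1 gene passed with DESeq2 size factors, 13 with no low-count filter and 11 with the DESeq2 Wald test, and leaving out 1 library gave 0 to 15, with 15 only without mouse 21. Under ascorbate, 2 passed with no low-count filter (6.59% of all genes called), 2 with the DESeq2 Wald test (11%), 1 with limma voom (9.10%) and 2 with only the groups compared (7.22%), and leaving out 1 library gave 0 to 1, with 1 without mouse 21 (6.24%) and without mouse 23 (6.00%). Between the arms, 1 passed with no low-count filter (lower among all genes: 1.26%) and 2 with the DESeq2 Wald test (1.64%). In the primary mouse 0 passed in the 16 alternatives. The median log2 fold change in the restored-labelled mice ran from -0.57 to -0.15 when 1 library was left out and stayed within the spread of the controls (0.13) in the other alternatives. Under ascorbate it turned to 0.030 with limma voom and ran from -0.11 to 0.058 when 1 library was left out. Between the arms it ran from -0.63 to -0.071. Without any of mice 16, 17, 19, 28 or 30 the calls of Topbp1, Rrm2b and Cdkn1b were lost; that of Cdkn1b was also lost with library totals, and that of Rrm2b with both FPKM fits. Direction did not reverse for any of 33 tested gene results. Fits that leave 1 library in an arm assume that it varies like the others, and the cause of these differences was not tested. Each arm has 2 mice, and the lowest count of any of the 49 genes was 179. The length and GC offset and the fit of all 8 libraries were chosen after seeing the data.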
